A study of Mus musculus with 11 samples.

Results

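The interleukin-1 system and the inflammasome that matures its cytokines were followed in the mouse brain through 10 genes: the ligands Il1a, Il1b, Il18 and Il33, the antagonist Il1rn, the receptors Il1r1, Il1r2 and Il1rap, and the inflammasome genes Nlrp3 and Casp1. The 10 were chosen by gene symbol among the 32285 genes of the deposited matrices, and all 10 were found. The study collected the right brain of mice after middle cerebral artery occlusion and reperfusion (MCAO/R), a suture model of ischemic stroke in which the artery was blocked for 1 h, or after sham surgery, in wild-type (WT) mice and in mice without Lrg1, the gene of a secreted leucine-rich glycoprotein. Single-cell RNA was counted as unique molecular identifiers (UMIs) with 3′ chemistry in 11 libraries of 1 mouse each, and the comparison asked how cells of the ischemic brain differ when Lrg1 is missing. Values are given in a fixed order of libraries, namely replicates 1, 2 and 3 of sham + WT, replicates 1, 2 and 5 of sham + Lrg1-/-, both replicates of MCAO/R + WT and replicates 1, 2 and 5 of MCAO/R + Lrg1-/-. WT mice were male C57BL/6 animals of 8 to 10 weeks, and Lrg1-/- mice were of the strain C57BL/6N-Lrg1em1cyagen, 3 months old and backcrossed for 4 generations, so age, source and substrain cannot be told apart from genotype. The sex of the Lrg1-/- mice was not stated, so whether the sexes were matched is unknown. The deletion was present in every cell from birth, and the sources used here do not state plainly how long the sequenced animals were reperfused.

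Interleukin-1 alpha and beta are alarm cytokines that bind the receptor Il1r1, which signals once the accessory chain Il1rap joins it. The antagonist Il1rn occupies the same receptor without signalling, and Il1r2 is a decoy that binds ligand but carries no signalling domain. Interleukin-1 beta and interleukin-18 are made as inactive precursors that caspase-1 cuts inside the Nlrp3 inflammasome, while interleukin-33 is a nuclear alarmin released by damaged cells. In the injured brain microglia and incoming leukocytes are known sources of interleukin-1, and vessel wall cells are known responders.

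The sequence before a transcription start is shown for the signalling receptor, the inflammasome sensor, the antagonist and the main ligand, on which most of the results below turn. Both Il1r1 windows on file are shown, and 1 each of the 2 Nlrp3 and 3 Il1rn windows. Each line gives 250 bases of the RefSeq sequence of GRCm38.p6 up to a start, 5′ to 3′ on the gene's strand, and capitals mark matches on either strand to GGGNNNNNCC (the NF-kB motif), TGANTCA (AP-1) or TTNNGNAA (C/EBP).
Il1r1, chr1:40224830-40225079, plus strand: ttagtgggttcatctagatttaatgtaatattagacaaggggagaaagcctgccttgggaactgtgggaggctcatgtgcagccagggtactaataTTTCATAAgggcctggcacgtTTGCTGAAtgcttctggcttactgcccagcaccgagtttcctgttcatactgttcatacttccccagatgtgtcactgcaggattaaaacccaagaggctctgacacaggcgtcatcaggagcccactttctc
Il1r1, chr1:40266336-40266585, plus strand: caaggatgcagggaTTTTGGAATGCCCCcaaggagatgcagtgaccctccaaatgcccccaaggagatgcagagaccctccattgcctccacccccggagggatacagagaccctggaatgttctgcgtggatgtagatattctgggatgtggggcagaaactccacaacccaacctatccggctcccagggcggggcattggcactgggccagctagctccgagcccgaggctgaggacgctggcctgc
Nlrp3, chr11:59541319-59541568, plus strand: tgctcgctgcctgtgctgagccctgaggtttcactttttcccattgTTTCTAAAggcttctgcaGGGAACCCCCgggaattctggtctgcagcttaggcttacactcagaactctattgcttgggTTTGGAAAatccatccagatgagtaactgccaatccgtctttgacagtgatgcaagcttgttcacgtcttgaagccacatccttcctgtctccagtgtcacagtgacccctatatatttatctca
Il1rn, chr2:24336610-24336859, plus strand: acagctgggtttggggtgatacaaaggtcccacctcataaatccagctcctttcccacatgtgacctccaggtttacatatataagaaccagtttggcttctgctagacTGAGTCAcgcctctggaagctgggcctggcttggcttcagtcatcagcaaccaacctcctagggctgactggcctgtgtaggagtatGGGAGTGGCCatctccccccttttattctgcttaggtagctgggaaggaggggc
Il1b, chr2:129371140-129371389, minus strand: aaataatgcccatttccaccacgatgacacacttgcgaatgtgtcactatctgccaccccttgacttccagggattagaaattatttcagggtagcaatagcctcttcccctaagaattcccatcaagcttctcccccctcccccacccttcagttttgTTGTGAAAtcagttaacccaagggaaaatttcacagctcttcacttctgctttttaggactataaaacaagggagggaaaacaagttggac

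In the first Il1r1 window the capitals are the C/EBP matches TTTCATAA and TTGCTGAA, and in the second window the NF-kB match GGAATGCCCC overlaps the C/EBP match TTTTGGAA by 4 bases. The Nlrp3 window held GGGAACCCCC for NF-kB and TTTCTAAA and TTTGGAAA for C/EBP, the Il1rn window TGAGTCA for AP-1 and GGGAGTGGCC for NF-kB, and the Il1b window TTGTGAAA for C/EBP. Of the windows not shown, the other Nlrp3 window held TTGAGAAA for C/EBP, and the other Il1rn windows, which overlap each other, held GGGTTTTTCC for NF-kB and TTGGGGAA, TTTTGGAA and TTTGGAAA for C/EBP. Over the 15 windows on file for the 10 members, the NF-kB letters were found in 6 (5 genes), the AP-1 letters in 2 (2 genes) and the C/EBP letters in 10 (6 genes). Among 32851 windows of the same length over all genes, 45.8% held the NF-kB letters, 6.75% the AP-1 letters and 36.8% the C/EBP letters, so such letters are common and a match is only a description.

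After filtering, 124491 cells remained, from 3054 to 32130 per library, with 37159497 to 171813031 UMIs per library and a median of 3070 to 11237 UMIs per cell. Marker genes named 98270 cells, and the unnamed share was 1.76% to 6.49% in WT libraries and 12.6% to 53.3% in Lrg1-/- libraries, highest in MCAO/R + Lrg1-/- replicates 1 and 5. Lrg1 itself gave 178 to 651 UMIs in sham + WT, 15405 to 16957 in MCAO/R + WT and at most 1 UMI in any Lrg1-/- library, as labelled. Hemoglobin transcripts outside red blood cells stood at 132 to 439 counts per 1000000 UMIs (CPM) in WT libraries and at 22700 to 76380 in Lrg1-/- libraries, and unnamed cells are among these, so unnamed red cells and free RNA cannot be told apart in this value. Libraries shared 0.233% to 1.24% of the smaller library's cell barcodes over the 55 pairs. Levels are given as CPM of the UMIs of 1 cell type in 1 library, for libraries with at least 20 cells of the type, and tests are edgeR quasi-likelihood tests across all genes of a cell type with Benjamini-Hochberg adjusted p. A difference was called at adjusted p below 0.05 and more than 0.361 on the log2 scale.

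Each member had its own map of cell types. By mean Il1b was highest in neutrophils (5082 ± 1427 CPM, SD, n = 5 libraries), then dendritic cells (1864 ± 270, n = 2) and monocytes (1662 ± 1280, n = 9), and these last 2 overlapped. The means cover different libraries, and the order did not hold within them. In MCAO/R + Lrg1-/- replicates 2 and 5 monocytes held 4439 and 2549 CPM, dendritic cells 2055 and 1673 and neutrophils 3316 and 6125. Every other type lay below 3% of the neutrophil level by mean, microglia at 111 ± 114 (n = 11) among them. Il1a was highest in microglia (596 ± 168, n = 11), and neutrophils (236 ± 104, n = 5), monocytes (156 ± 113, n = 9), B cells (132 ± 107, n = 6) and border macrophages (129 ± 53.4, n = 11) followed with ranges that overlapped each other. Nlrp3 was highest in neutrophils (783 ± 301, n = 5) and microglia (543 ± 283, n = 11), which overlapped, and Casp1 in border macrophages (57.0 ± 11.9, n = 11), monocytes (46.5 ± 13.2, n = 9) and microglia (34.1 ± 4.81, n = 11). Within MCAO/R + WT libraries Nlrp3 stood at 1040 and 1124 CPM in neutrophils against 960 and 1113 in microglia. It stood at 450 and 781 against 551 and 741 in MCAO/R + Lrg1-/- replicates 2 and 5, and at 518 against 314 in sham + WT replicate 2.

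Of the remaining members, Il1r1, Il33 and Il18 were highest outside leukocytes. Il1r1 was highest in endothelial cells (215 ± 215 CPM, n = 11), and vascular smooth muscle cells (74.3 ± 32.5, n = 11), pericytes (72.5 ± 25.8, n = 11) and fibroblasts (56.4 ± 28.8, n = 6) did not differ beyond their spread. Il33 was highest in oligodendrocytes (433 ± 255, n = 11) and Il18 in astrocytes (193 ± 76.5, n = 11) before oligodendrocytes (89.7 ± 17.8, n = 11). Il1rap was high in neutrophils (667 ± 254, n = 5) and oligodendrocytes (401 ± 72.3, n = 11), whose ranges overlapped. Il1r2 and Il1rn were highest by mean in neutrophils, at 1393 ± 319 and 117 ± 71.9 CPM (n = 5). In MCAO/R + WT replicate 1, however, Il1rn stood at 111 CPM in monocytes and 84.9 in neutrophils. Among all Il1b UMIs of a library, microglia gave 51.0% and 56.9% of Il1b UMIs on average in sham + WT and MCAO/R + WT, against 12.7% and 9.94% in sham + Lrg1-/- and MCAO/R + Lrg1-/-, where unnamed cells gave 15.4% and 29.8%. Such shares follow how many cells of each type a library held, from 7 to 1378 neutrophils and 231 to 4210 microglia for example.

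**Figure D1:**
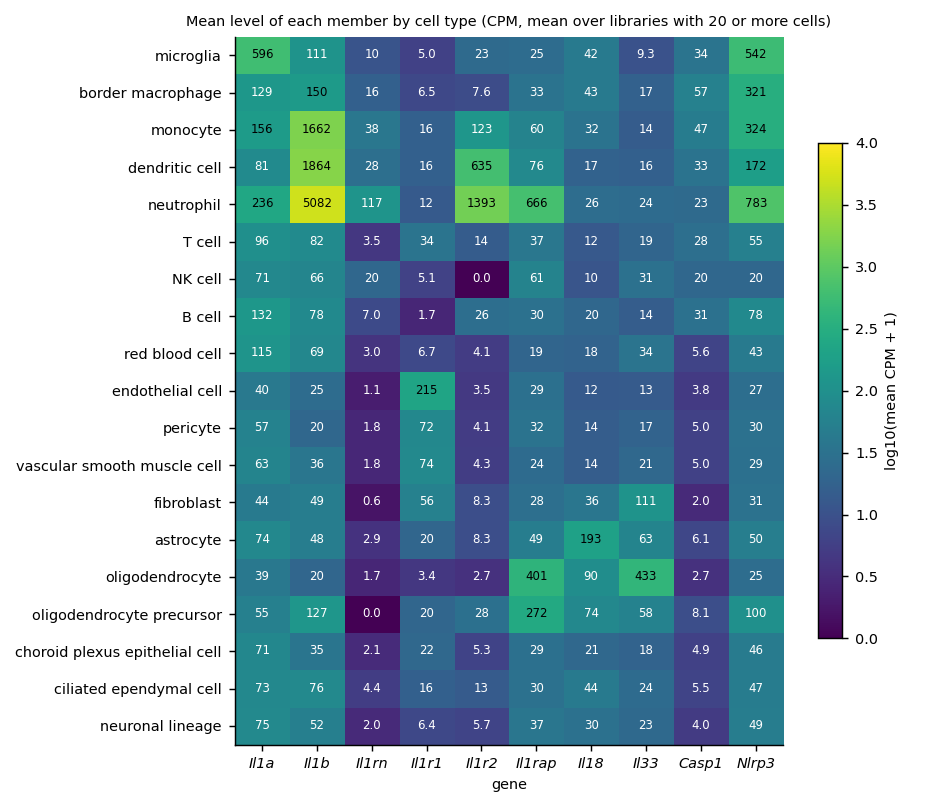
Mean level of the 10 members (columns) in each named cell type (rows), in CPM averaged over libraries with at least 20 cells of the type; the number in each cell is the mean CPM and the color gives log10 of the mean CPM plus 1. Il1b peaked in neutrophils at 5082 CPM, Il1r1 in endothelial cells at 215, Il33 in oligodendrocytes at 433 and Il18 in astrocytes at 193.

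Counted over members and cell types, MCAO/R changed 17 of 105 combinations in WT mice, 16 upward, beside 7.97% of all genes called over those cell types and 4.17% called upward. In Lrg1-/- mice it changed 25 of 124, 24 upward, beside 8.93% and 4.84%. Between genotypes 37 of 114 combinations differed after MCAO/R, 27 higher and 10 lower in Lrg1-/-, beside 14.2% of all genes called, 7.56% higher and 6.67% lower. After sham surgery 9 of 115 differed, 8 of them higher in Lrg1-/-, beside 11.3% called and 5.81% called higher. The change with MCAO/R itself differed between genotypes in 4 of 98 combinations, all in microglia, beside 1.73%. Many calls lay outside a member's main types, those at or above 10% of its highest mean level. Within main types MCAO/R changed 5 of 29 combinations in WT and 7 of 36 in Lrg1-/- mice. Elsewhere it changed 12 of 76 and 18 of 88. Between genotypes after MCAO/R 8 of 37 differed in main types and 29 of 77 elsewhere, 24 of these 29 higher in Lrg1-/-. In microglia alone 6 of 10 members rose in WT mice (22.1% of genes called, 12.1% upward) and 5 of 10 in Lrg1-/- mice (38.2%, 22.3% upward). After MCAO/R 2 were higher and 4 lower in Lrg1-/- microglia (21.6% called, 10.8% in each direction), after sham surgery 1 was lower (23.4% called, 12.7% lower), and 4 of 10 gave an interaction (11.3%). In endothelial cells 3 rose and 1 fell in WT mice (14.5%, 7% upward), and 5 rose in Lrg1-/- mice (16%, 8.82% upward). After MCAO/R 3 were higher and 1 lower in Lrg1-/- endothelium (19.9%, 10.7% higher and 9.18% lower), and after sham surgery 3 were higher (22.2%, 10.6% higher). Only 29 of the 92 calls were kept with each library left out in turn, and the MCAO/R + WT group rested on 2 mice, so the libraries a call depends on are named beside it. When 1 of those 2 mice is left out, the other is assumed to vary like the other groups.

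**Figure D2:**
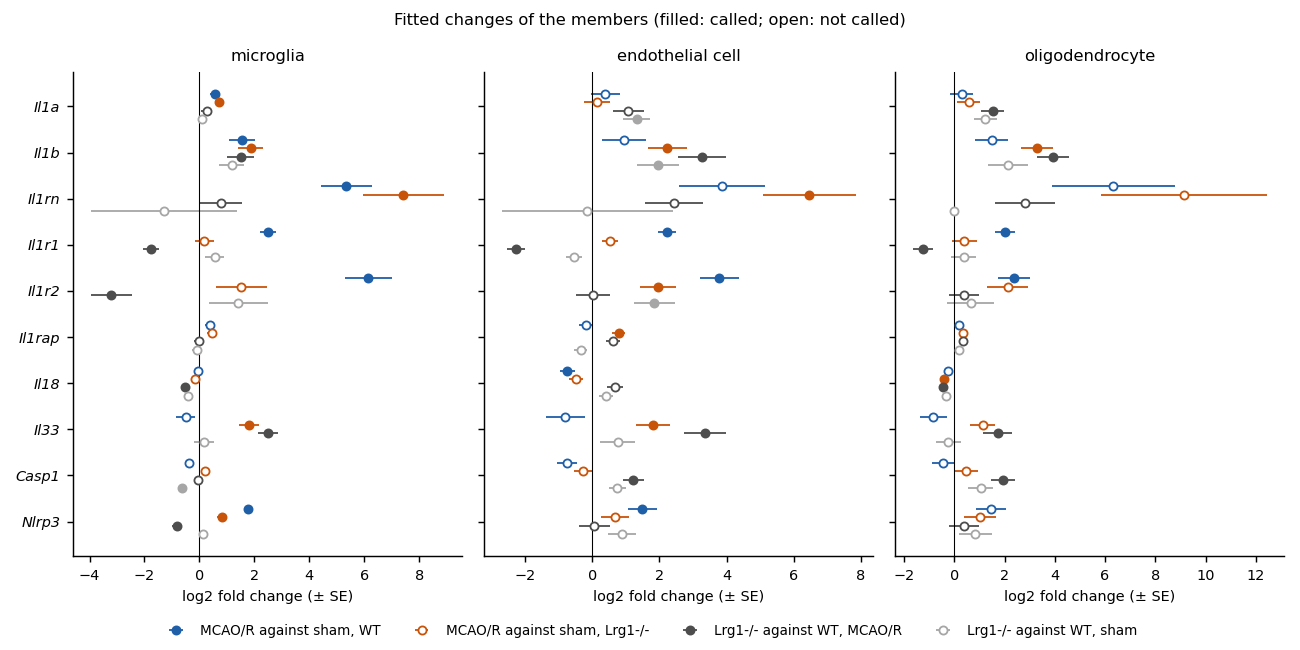
Fitted log2 fold changes (horizontal axis, ± SE) of the 10 members in microglia, endothelial cells and oligodendrocytes for 4 comparisons; filled points were called and open points were not. Il1r1 in endothelial cells lies at 2.24 for MCAO/R against sham in WT and at -2.25 for Lrg1-/- against WT after MCAO/R.

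Il1a (chr2:129299610-129309972, minus strand, GRCm38) encodes interleukin-1 alpha, which needs no caspase-1. In microglia it stood at 394, 488 and 399 CPM in sham + WT, 565, 402 and 621 in sham + Lrg1-/-, 690 and 573 in MCAO/R + WT and 824, 745 and 858 in MCAO/R + Lrg1-/-. All MCAO/R libraries were above the sham libraries of their genotype. The rise was 1.66-fold in Lrg1-/- mice (log2 0.73 ± 0.17 SE, adjusted p = 0.00391), kept with each library left out. It was 1.49-fold in WT mice (adjusted p = 0.0408). This call was lost without sham + WT replicate 1 or 3 (adjusted p = 0.114 and 0.124), without MCAO/R + WT replicate 1 and without the microglial Lpl and Msr1 cluster (0.728). That cluster was led by Lilr4b, Ifi207 and Lilrb4a, and is named here after Lpl and Msr1, which were also among its leading genes. The genotypes gave no call for microglial Il1a after MCAO/R (1.2-fold, adjusted p = 0.339). In choroid plexus epithelial cells it was 2.85-fold higher in sham + Lrg1-/- than in sham + WT (adjusted p = 0.00798), kept with each library left out. In endothelial cells, at 13.9 to 107 CPM, Il1a was 2.51-fold higher in sham + Lrg1-/- than in sham + WT (adjusted p = 0.0329, lost without sham + WT replicate 2 or 3 or sham + Lrg1-/- replicate 2 or 5, at 0.0777 to 0.138). The summed microglial markers in those endothelial cells stood at 401 to 746 CPM in sham + WT and 672 to 1238 in sham + Lrg1-/-, and their part in this difference was not tested.

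Il1b (chr2:129364570-129371139, minus strand), the ligand cut by caspase-1, reached its highest levels in leukocytes, while microglia on average gave most Il1b UMIs in WT libraries. Neutrophils held 4597 CPM in sham + WT replicate 2, 6907 and 4467 in MCAO/R + WT and 3316 and 6125 in MCAO/R + Lrg1-/-. The genotypes overlapped and gave no call after MCAO/R (0.981-fold, adjusted p = 0.985). In monocytes the values were 592, 1268 and 521 CPM in sham + WT, 1068 and 698 in sham + Lrg1-/- replicates 1 and 5, 1362 in MCAO/R + WT replicate 1 and 2461, 4439 and 2549 in MCAO/R + Lrg1-/-. The 3 stroke libraries of Lrg1-/- mice were above every other monocyte library. The rise in Lrg1-/- mice was 3.84-fold (log2 1.94 ± 0.42, adjusted p = 0.0173), beside 7.98% of genes called in monocytes, and was lost without sham + Lrg1-/- replicate 1 (0.0849) or 5 (0.136). With 1 MCAO/R + WT library of at least 20 monocytes, the same change was not tested in WT mice.

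In microglia Il1b was lower, at 17.3, 42.0 and 27.5 CPM in sham + WT, 77.9, 63.3 and 85.7 in sham + Lrg1-/-, 102 and 65.4 in MCAO/R + WT and 92.2, 240 and 404 in MCAO/R + Lrg1-/-. Every other library lay above the 3 sham + WT libraries. MCAO/R raised it 3.65-fold in Lrg1-/- mice (adjusted p = 0.00516, kept with each library left out) and 2.91-fold in WT mice (adjusted p = 0.0314). The WT call was lost without sham + WT replicate 1 (0.109) or 3 (0.0909), without MCAO/R + WT replicate 1 (0.189) and without the Lpl and Msr1 cluster (0.186). After MCAO/R it was 2.83-fold higher in Lrg1-/- than in WT (adjusted p = 0.0475), but the groups overlapped and the call was lost without any of 7 libraries (sham + WT replicate 3, sham + Lrg1-/- replicates 1, 2 and 5, MCAO/R + WT replicate 2, MCAO/R + Lrg1-/- replicates 2 and 5), at 0.0602 to 0.239. Border macrophages, which line the brain's surfaces and vessels, held 29.8, 63.4 and 31.2 CPM in sham + WT, 239, 134 and 116 in sham + Lrg1-/-, 74.8 and 10.6 in MCAO/R + WT and 117, 331 and 502 in MCAO/R + Lrg1-/-. The genotypes did not overlap after either operation. The fold between them was 6.75 after MCAO/R (adjusted p = 0.00887, lost without MCAO/R + WT replicate 2, at 0.076) and 3.97 after sham surgery, which was not called (adjusted p = 0.0852). The 8 neutrophil markers in these border macrophages summed to 60.2 to 71.6 CPM in sham + WT, 83.5 to 113 in sham + Lrg1-/-, 69.7 and 63.5 in MCAO/R + WT and 52.2, 274 and 412 in MCAO/R + Lrg1-/-, and their part in the Il1b difference was not tested.

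Il1b was also counted in cells other than neutrophils, monocytes, dendritic cells, border macrophages and microglia. After MCAO/R it was called higher in Lrg1-/- than in WT mice in 8 such types: endothelial cells, pericytes, smooth muscle cells, astrocytes, oligodendrocytes, choroid plexus, ependymal and neuronal cells. In pericytes, cells that wrap capillaries, it stood at 6.79 and 5.68 CPM in MCAO/R + WT and 37.3, 60.4 and 82.7 in MCAO/R + Lrg1-/- (10.4-fold, adjusted p = 5.55e-05, beside 18.2% of pericyte genes called). The pericyte fold is imprecise, since these libraries held 16 and 17 Il1b UMIs in MCAO/R + WT pericytes and 9, 74 and 22 in MCAO/R + Lrg1-/-. In oligodendrocytes Il1b stood at 6.13 and 3.29 against 13.8, 59.4 and 114 CPM (15.2-fold, adjusted p = 0.00109). The groups did not overlap in either type, and both calls were kept with each library left out, while the calls in the other 6 types were lost without at least 1 library, MCAO/R + WT replicate 2 in each case. The ratio of Il1b to S100a9 UMIs, S100a9 being an abundant neutrophil transcript, was 0.16 to 0.808 in endothelial cells, pericytes, smooth muscle cells, astrocytes, oligodendrocytes, choroid plexus, ependymal and neuronal cells of MCAO/R + Lrg1-/- replicates 2 and 5. In replicate 1 it was 0.338 to 1.52 in the 5 of these types with a value, and in MCAO/R + WT 0.198 to 1.6. The same ratio was 0.0419 and 0.252 in neutrophils, 2.52 and 2.73 in microglia, 3.18 and 2.96 in border macrophages and 24.1 and 7.05 in monocytes of replicates 2 and 5. The 8 neutrophil markers summed to 16.2 and 15.3 CPM in MCAO/R + WT oligodendrocytes and to 21.4, 278 and 380 in MCAO/R + Lrg1-/-, with none of the 8 at 0, and their part in the Il1b difference was not tested. In microglia they summed to 128 and 246 CPM against 102, 274 and 394.

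**Figure D3:**
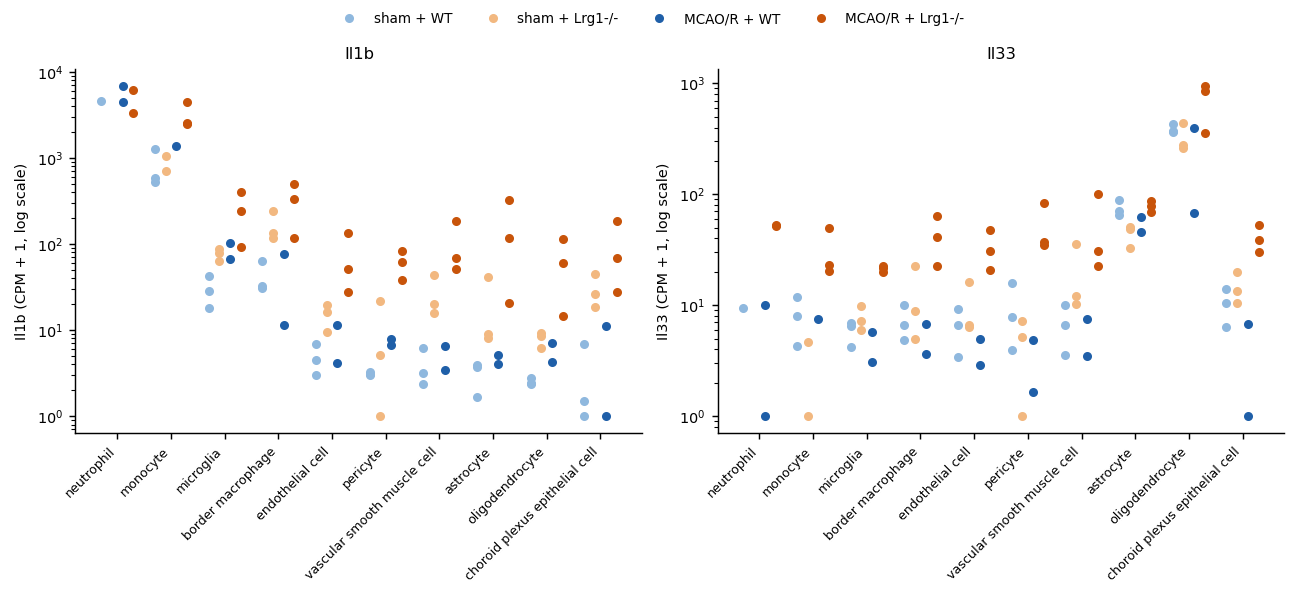
Il1b (left) and Il33 (right) in 10 cell types, in CPM plus 1 on a log axis, with 1 point per library and the color giving the group. Il1b was at 3316 to 6907 CPM in neutrophils of both genotypes and 3.29 to 114 CPM in oligodendrocytes after MCAO/R, and Il33 in microglia stood at 18.9 to 21.7 CPM in MCAO/R + Lrg1-/- against 2.05 and 4.73 in MCAO/R + WT.

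Il18 (chr9:50554827-50581840, plus strand), the other caspase-1 substrate among the ligands, showed no called change in its top type. In astrocytes it stood at 277, 296 and 260 CPM in sham + WT, 155, 174 and 101 in sham + Lrg1-/-, 162 and 306 in MCAO/R + WT and 143, 112 and 135 in MCAO/R + Lrg1-/-. The 6 Lrg1-/- libraries were at or below 174 and 4 of 5 WT libraries at or above 260, but neither genotype comparison passed (0.562-fold after sham, adjusted p = 0.0895, and 0.578-fold after MCAO/R, adjusted p = 0.129). Astrocytes of the 2 genotypes lay in the same clusters, with overlapping shares. The cluster where Il18 was highest held 29% to 69% of WT and 5% to 43% of Lrg1-/- astrocytes. Il18 there stood at 364.5, 331.5 and 316.6 CPM in sham + WT and 237 and 252.5 in sham + Lrg1-/- replicates 1 and 2. In the other cluster, led by Gpc5, Slc1a2 and Lsamp, it stood at 161, 173 and 143 against 110.5, 95.5 and 84.9 after sham surgery. After MCAO/R it stood there at 107 and 163.5 against 117, 88.3 and 124. These values were not tested. In oligodendrocytes Il18 stood at 97.8 and 98.4 CPM in MCAO/R + WT and 66.7, 61.2 and 71.4 in MCAO/R + Lrg1-/-, and in microglia at 40.2 and 51.6 against 31.6, 30.1 and 38.6. Groups did not overlap in either type. Both differences were called, at 0.722-fold (adjusted p = 0.00711, lost without MCAO/R + WT replicate 2, at 0.06) and 0.695-fold (adjusted p = 0.024, lost without MCAO/R + WT replicate 2 at 0.215 or MCAO/R + Lrg1-/- replicates 1 or 2 at 0.0525 and 0.0744). Within the oligodendrocyte cluster led by Phactr3, Pcdh11x and Kcna1, which held 84.1% and 92.3% of MCAO/R + WT and 19% to 29.9% of MCAO/R + Lrg1-/- oligodendrocytes, Il18 stood at 95.2 and 99.7 against 87.9, 77.4 and 88.9 CPM, closer together than over all oligodendrocytes. In the cluster led by Zfp536, St18 and Tmeff2, which held 62.5% to 79.6% of MCAO/R + Lrg1-/- and 14.7% and 6.8% of MCAO/R + WT oligodendrocytes, it stood at 121 and 80 against 48.6, 49.5 and 49.8 CPM, further apart than over all of them.

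Il33 (chr19:29925114-29960718, plus strand), the nuclear alarmin of glia, stood in oligodendrocytes at 431, 371 and 364 CPM in sham + WT, 278, 261 and 435 in sham + Lrg1-/-, 398 and 67.0 in MCAO/R + WT and 854, 949 and 355 in MCAO/R + Lrg1-/-. Replicate 2 of MCAO/R + WT was the lowest of all 11 libraries and replicates 1 and 2 of MCAO/R + Lrg1-/- the highest. The genotypes differed 3.31-fold after MCAO/R (adjusted p = 0.0417, beside 25.5% of genes called), but the groups overlapped and the call was lost without any of 8 libraries (sham + WT replicates 2 and 3, all 3 sham + Lrg1-/- replicates, MCAO/R + WT replicate 2, MCAO/R + Lrg1-/- replicates 1 and 2), at 0.0526 to 0.185. Oligodendrocytes of MCAO/R + WT lay mostly in another cluster (84.1% and 92.3%) than those of MCAO/R + Lrg1-/- (19% to 29.9% there). In that cluster, led by Phactr3, Pcdh11x and Kcna1, Il33 stood at 244 and 67.3 CPM in MCAO/R + WT and 912, 811 and 353 in MCAO/R + Lrg1-/-, without overlap. In the cluster led by Zfp536, St18 and Tmeff2 it stood at 1464 and 91.4 against 1039, 1082 and 365, so that MCAO/R + WT replicate 1 was highest there. Il33 was among the genes used for clustering, so these values were not tested. The astrocyte values, 31.6 to 87.5 CPM over all libraries, gave no call.

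In microglia Il33 was far lower. It stood at 5.90, 5.51 and 3.24 CPM in sham + WT, 6.2, 4.92 and 8.86 in sham + Lrg1-/-, 4.73 and 2.05 in MCAO/R + WT and 20.8, 18.9 and 21.7 in MCAO/R + Lrg1-/-. The MCAO/R + Lrg1-/- libraries were above all 8 others. The rise with MCAO/R in Lrg1-/- mice was 3.49-fold (adjusted p = 0.00127) and the difference from MCAO/R + WT 5.6-fold (adjusted p = 0.00052), both kept with each library left out. The effect of MCAO/R differed between genotypes by 2.31 ± 0.50 on the log2 scale (adjusted p = 0.014, and 0.0503 without sham + Lrg1-/- replicate 2). Il33 was also higher in MCAO/R + Lrg1-/- than in MCAO/R + WT in border macrophages (8.41-fold, adjusted p = 0.00264), endothelial cells (10.2-fold, 0.00359), pericytes (22.8-fold, 0.000184) and choroid plexus epithelial cells (11.4-fold, 0.00219), each kept with every library left out. The MCAO/R + WT libraries held 16 and 4 Il33 UMIs in border macrophages, 132 and 44 in endothelial cells, 9 and 2 in pericytes and 8 and 0 in choroid plexus. Folds over so few UMIs are imprecise. The choroid plexus call was lost with cells thinned to 1000 UMIs (adjusted p = 0.211). Leukocytes and red blood cells of MCAO/R + Lrg1-/- held similar levels, 30.6, 83.6 and 41.9 CPM in T cells, 58.0, 38.1 and 64.8 in red blood cells and 50.9 and 51.9 in neutrophils of replicates 2 and 5. Sham + Lrg1-/- held 1.51, 0 and 3.90 in T cells (2, 0 and 2 UMIs) and 4.58, 6.63 and 5.98 in red blood cells (4, 4 and 4 UMIs). The rise with MCAO/R in Lrg1-/- mice was called in T cells (25.7-fold, adjusted p = 0.00466, and 0.0881 without sham + Lrg1-/- replicate 1) and red blood cells (5.33-fold, adjusted p = 0.00858, lost without any 1 of the 3 sham + Lrg1-/- libraries, at up to 0.0937). The 9 oligodendrocyte markers summed to 387 and 844 CPM in MCAO/R + WT microglia and to 578, 409 and 892 in MCAO/R + Lrg1-/- microglia, so the groups overlapped, and their part in the Il33 difference was not tested.

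Il1rn (chr2:24336853-24351494, plus strand), the receptor antagonist, was close to absent from sham brains. Microglia held 0.259, 0.291 and 0.557 CPM in sham + WT, 0.365, 0 and 0 in sham + Lrg1-/-, 27.8 and 1.43 in MCAO/R + WT and 13.3, 43.1 and 22.5 in MCAO/R + Lrg1-/-. Every MCAO/R library was above every sham library. In WT mice the fitted rise was 5.35 ± 0.94 on the log2 scale (adjusted p = 0.0012, and 0.0576 without MCAO/R + WT replicate 1). In Lrg1-/- mice 2149 UMIs of 66578323 stood against 2 of 11781142, a ratio of 190 with a 95% exact counting interval of 52.6 to 1570, and the test gave adjusted p = 0.00148. Genotype gave no call after MCAO/R (adjusted p = 0.491). Within microglia Il1rn followed the Lpl and Msr1 cluster, at 47.2 and 8.21 CPM there in MCAO/R + WT and 23.5, 52.5 and 37.9 in MCAO/R + Lrg1-/-, against 0.636 to 6.15 in the other microglia of the same libraries. That cluster held 0% to 0.846% of microglia in sham libraries, 47.6% and 7.61% in MCAO/R + WT and 37.2%, 70.3% and 45.3% in MCAO/R + Lrg1-/-. Il1rn was itself among the genes used for clustering, so the split is a description.

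In border macrophages Il1rn stood at 3.04, 1.55 and 0.481 CPM in sham + WT, 6.16, 1.30 and 0 in sham + Lrg1-/-, 17.3 and 3.31 in MCAO/R + WT and 59.4, 39.1 and 42.5 in MCAO/R + Lrg1-/-. MCAO/R raised Il1rn 12.9-fold in Lrg1-/- mice (adjusted p = 0.00367, kept with each library left out, beside 11% of genes called) and 6.48-fold in WT mice (adjusted p = 0.0229, beside 8.27%). The WT call was lost without sham + WT replicate 2 or 3 (0.0855 and 0.109) or MCAO/R + WT replicate 1 (0.727). After MCAO/R it was 4.04-fold higher in Lrg1-/- (adjusted p = 0.0164, beside 18.6%), lost without MCAO/R + WT replicate 2 (0.112) or MCAO/R + Lrg1-/- replicate 1 (0.0527). Neutrophils held 84.9 and 79.1 CPM in MCAO/R + WT and 159 and 221 in MCAO/R + Lrg1-/-, which did not pass (2.78-fold, adjusted p = 0.0803, beside 0.507% of genes called in neutrophils).

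Il1r1 (chr1:40225080-40317257, plus strand), the signalling receptor, was an endothelial gene. In endothelial cells it stood at 112, 163 and 139 CPM in sham + WT, 136, 64.4 and 75.1 in sham + Lrg1-/-, 525 and 744 in MCAO/R + WT and 120, 138 and 151 in MCAO/R + Lrg1-/-. The MCAO/R + WT libraries were above the other 9, and MCAO/R + Lrg1-/- lay within the range of sham + WT. MCAO/R raised Il1r1 4.72-fold in WT mice (log2 2.24 ± 0.27, adjusted p = 0.000162). After MCAO/R it was lower in Lrg1-/- by a log2 difference of -2.25 ± 0.27, or 4.77-fold (adjusted p = 0.000389). Both calls were kept with each library left out, at adjusted p of at most 0.00175 and 0.00546. In Lrg1-/- mice MCAO/R gave 1.44-fold (adjusted p = 0.166), and after sham surgery genotype gave 0.69-fold (adjusted p = 0.13). The difference between the 2 MCAO/R effects was -1.72 ± 0.36 on the log2 scale and missed the threshold (unadjusted p = 0.000426, adjusted p = 0.0572, and 0.0567 to 0.237 with a library left out), beside 0.64% of endothelial genes called.

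The endothelial libraries differed in which cells they held. The cluster led by Adgrl4, Mecom and Flt1 made up 57.2% and 63.2% of endothelial cells in MCAO/R + WT, 34.4%, 24.9% and 16.9% in MCAO/R + Lrg1-/- and 2.19% to 4.28% in sham libraries. In that cluster Il1r1 stood at 627, 823 and 740 CPM in sham + WT, 470, 449 and 312 in sham + Lrg1-/-, 556 and 779 in MCAO/R + WT and 95.7, 166 and 216 in MCAO/R + Lrg1-/-. It was thus high in sham libraries of this cluster too, and lowest after MCAO/R in Lrg1-/- mice. The cluster led by Cxcl12, Flt1 and Spock2, where sham libraries had 20.8 to 40.8 CPM, made up 28% to 50% of sham endothelial cells and 0% to 4.1% after MCAO/R. In the cluster led by Lcn2, Adamts9 and Ctla2a, Il1r1 was not at its MCAO/R + WT level in sham libraries. It stood there at 41.1, 101.5 and 57.1 CPM in sham + WT and 311, 56.45 and 137 in sham + Lrg1-/-. After MCAO/R it stood at 515 and 1188 CPM in WT and 178, 140 and 198 in Lrg1-/- mice. That cluster held 1.31% to 10.4% of endothelial cells in sham libraries. Il1r1 was among the genes used for clustering, so these values describe the clusters and were not tested.

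**Figure D4:**
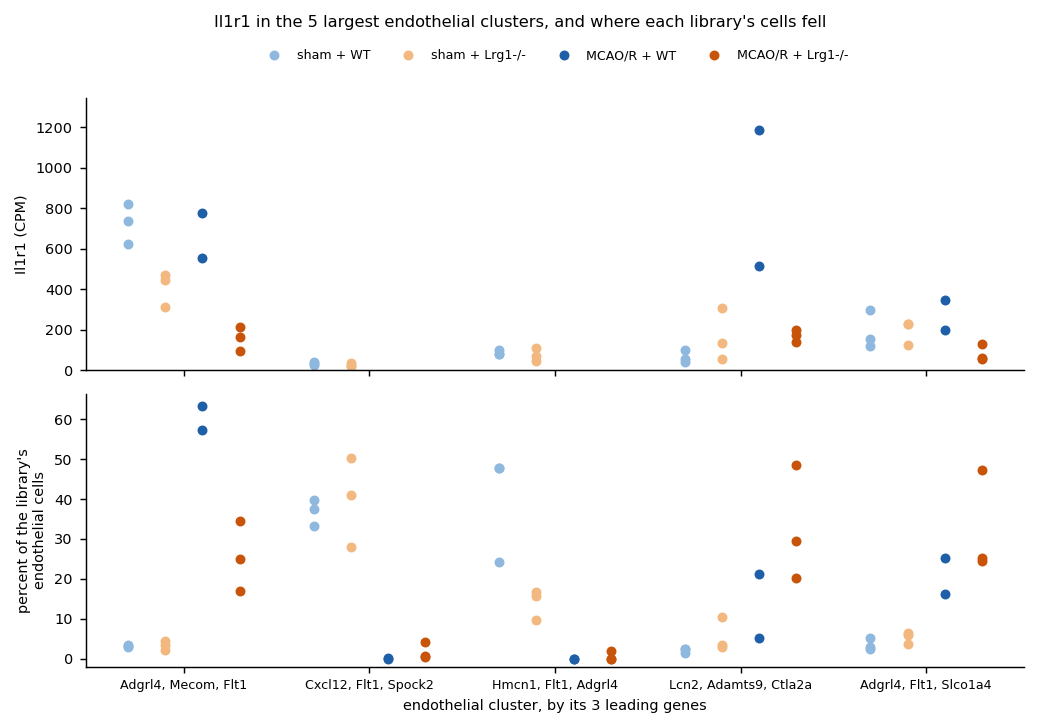
Il1r1 in CPM (top) and the percent of each library's endothelial cells (bottom) in the 5 largest endothelial clusters, each named by its 3 leading genes, with 1 point per library in its group's color. In the Adgrl4, Mecom and Flt1 cluster MCAO/R + WT libraries stood at 556 and 779 CPM and MCAO/R + Lrg1-/- libraries at 95.7 to 216.

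In the mural cells Il1r1 gave no call. Pericytes ranged from 34.6 to 122 CPM and vascular smooth muscle cells from 27.9 to 117 over all libraries, fibroblasts from 25.8 to 111 and T cells from 0 to 95.2. In the choroid plexus epithelium, which makes cerebrospinal fluid, the MCAO/R + WT libraries stood at 92.0 and 28.3 CPM, against 8.73, 11.3 and 10.4 in MCAO/R + Lrg1-/- (log2 -2.45 ± 0.36, adjusted p = 0.00087, beside 23.8% of genes called, and lost without MCAO/R + WT replicate 1, at 0.112). In microglia Il1r1 was low, at 1.68, 2.50 and 2.65 CPM in sham + WT, 4.92, 2.58 and 3.94 in sham + Lrg1-/-, 12.7 and 12.9 in MCAO/R + WT and 2.81, 5.12 and 3.38 in MCAO/R + Lrg1-/-. The MCAO/R + WT libraries were above the other 9. Il1r1 rose 5.63-fold in WT microglia (adjusted p = 6.19e-05) and the effect of MCAO/R differed between genotypes by -2.31 ± 0.45 on the log2 scale (adjusted p = 0.01), both kept with each library left out. The interaction was lost with cells thinned to 1000 UMIs (adjusted p = 0.0924). Il1r1 also rose in WT mice in oligodendrocytes, from 2.34, 1.64 and 1.71 to 7.73 and 8.45 CPM (adjusted p = 0.00219, kept with each library left out), in neuronal cells (6.36-fold, adjusted p = 0.026) and in choroid plexus (3.52-fold, adjusted p = 0.0338). The neuronal call was lost without any 1 of the 5 WT libraries, at up to 0.221, and that of choroid plexus without any sham + WT library, sham + Lrg1-/- replicate 2 or MCAO/R + WT replicate 1, at up to 0.623. The 8 endothelial markers in microglia summed to 354 and 293 CPM in MCAO/R + WT and to 149, 434 and 116 in MCAO/R + Lrg1-/-, and their part in this difference was not tested.

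Il1r2 (chr1:40074079-40125231, plus strand), the decoy, was a neutrophil gene at 1147 CPM in sham + WT replicate 2, 1737 and 1744 in MCAO/R + WT and 1114 and 1225 in MCAO/R + Lrg1-/-, with no call (0.818-fold, adjusted p = 0.637). In microglia it stood at 0.957, 1.53 and 1.75 CPM in sham + WT, 3.46, 1.64 and 10.8 in sham + Lrg1-/-, 45.5 and 159 in MCAO/R + WT and 0.702, 4.38 and 25.1 in MCAO/R + Lrg1-/-. The MCAO/R + WT libraries were above all others, and the 2 Lrg1-/- groups overlapped. MCAO/R raised it by 6.15 ± 0.86 on the log2 scale in WT mice (adjusted p = 0.000232, kept with each library left out), and in Lrg1-/- mice gave 2.89-fold (adjusted p = 0.219). After MCAO/R it was 9.23-fold lower in Lrg1-/- (adjusted p = 0.00928, and 0.112 without MCAO/R + WT replicate 2). The interaction, -4.62 ± 1.35 (adjusted p = 0.043), was lost without any of 8 libraries (all 6 sham libraries, MCAO/R + WT replicate 2 and MCAO/R + Lrg1-/- replicate 2), at 0.0683 to 0.143. Both classes of microglia carried the WT value, at 49.0 and 328 CPM in the Lpl and Msr1 cluster and 40.9 and 139 in the rest.

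Border macrophages gave 3.54, 0.515 and 1.44 CPM in sham + WT, 5.28, 1.30 and 3.63 in sham + Lrg1-/-, 22.0 and 29.1 in MCAO/R + WT and 5.79, 3.07 and 7.5 in MCAO/R + Lrg1-/- for Il1r2. The MCAO/R + WT libraries were again above the other 9. The rise in WT mice was 13.2-fold (adjusted p = 0.000377, kept with each library left out). After MCAO/R Il1r2 was 5.57-fold lower in Lrg1-/- (adjusted p = 0.006, and 0.0519 without MCAO/R + WT replicate 2 or without MCAO/R + Lrg1-/- replicate 2). In endothelial cells Il1r2 stood at 0.454, 0.573 and 0.371 CPM in sham + WT, 2.87, 0.821 and 1.27 in sham + Lrg1-/-, 4.56 and 8.03 in MCAO/R + WT and 2.66, 4.95 and 12.3 in MCAO/R + Lrg1-/-. The rise with MCAO/R there was 13.8-fold in WT mice (adjusted p = 0.000899, kept with each library left out) and 3.86-fold in Lrg1-/- mice (adjusted p = 0.0286, lost without sham + Lrg1-/- replicate 2 or 5 or MCAO/R + Lrg1-/- replicate 2 or 5, at up to 0.114). The genotypes overlapped after MCAO/R with no call (1.01-fold, adjusted p = 0.987), and after sham surgery Il1r2 was 3.61-fold higher in Lrg1-/- endothelium (adjusted p = 0.0488, lost without any of 8 libraries, at up to 0.238). The part of the neutrophil markers, whose sums in border macrophages are given with Il1b, in the Il1r2 difference was not tested.

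Il1rap (chr16:26581704-26730117, plus strand), the accessory chain, was highest in neutrophils and oligodendrocytes. In oligodendrocytes it stood at 305, 360 and 347 CPM in sham + WT, 363, 383 and 385 in sham + Lrg1-/-, 383 and 426 in MCAO/R + WT and 568, 489 and 403 in MCAO/R + Lrg1-/-, with no call in any comparison of oligodendrocytes (1.28-fold with MCAO/R in Lrg1-/- mice, adjusted p = 0.0982). The groups lay close together, with sham + WT lowest. Neutrophils gave 1088 and 554 CPM in MCAO/R + WT and 707 and 542 in MCAO/R + Lrg1-/-, and oligodendrocyte precursors 212 to 360 over 3 libraries. In endothelial cells, the type with most Il1r1, Il1rap stood between 19.0 and 50.3 CPM and rose 1.73-fold with MCAO/R in Lrg1-/- mice (adjusted p = 0.0154, and 0.0636 without sham + Lrg1-/- replicate 2). In neuronal cells it stood at 24.1, 19.3 and 22.5 CPM in sham + WT, 21.1 and 16.4 in sham + Lrg1-/- replicates 1 and 2, 18.4 and 15.8 in MCAO/R + WT and 108, 37.5 and 84.2 in MCAO/R + Lrg1-/-, the highest 3 libraries. The genotypes differed 4.79-fold there after MCAO/R (log2 2.26 ± 0.35, adjusted p = 0.00274), kept with each library left out. In the same cells the 9 oligodendrocyte markers summed to 597 and 1054 CPM in MCAO/R + WT and 1677, 2459 and 2475 in MCAO/R + Lrg1-/-, and the 8 neutrophil markers to 16.4 and 28.4 against 24.8, 234 and 1327. The part of these markers in the Il1rap difference was not tested.

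Nlrp3 (chr11:59541568-59566956, plus strand), the sensor of the inflammasome, changed in microglia in every comparison but that of the sham groups. It stood at 293, 314 and 295 CPM in sham + WT, 440, 319 and 383 in sham + Lrg1-/-, 960 and 1113 in MCAO/R + WT and 560, 551 and 741 in MCAO/R + Lrg1-/-. The MCAO/R + WT libraries were highest, MCAO/R + Lrg1-/- libraries next and the sham libraries below both, with no overlap between these 3 levels. MCAO/R raised Nlrp3 3.45-fold in WT mice (log2 1.79 ± 0.17, adjusted p = 1.48e-05) and 1.76-fold in Lrg1-/- mice (0.82 ± 0.16, adjusted p = 0.00126). After MCAO/R it was 1.78-fold lower in Lrg1-/- (adjusted p = 0.005), and all 3 calls were kept with each library left out. The difference of the MCAO/R effects was -0.97 ± 0.24 (adjusted p = 0.0228), lost without sham + WT replicate 1 or 3, sham + Lrg1-/- replicate 1 or MCAO/R + WT replicate 2, at 0.0521 to 0.0609. In both classes of microglia Nlrp3 was higher in MCAO/R + WT than in MCAO/R + Lrg1-/-, at 953 and 1176 against 536, 549 and 715 CPM in the Lpl and Msr1 cluster and 969 and 1106 against 584, 556 and 771 in the rest.

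A set of 15 genes induced early by tissue dissociation moved with genotype in the same microglia. Their sum was 41300, 44290 and 44130 CPM in sham + WT, 26440, 21760 and 24990 in sham + Lrg1-/-, 36540 and 41460 in MCAO/R + WT and 14760, 17440 and 19530 in MCAO/R + Lrg1-/-. After MCAO/R 12 of the 15 were lower and 1 higher in Lrg1-/-, beside 10.8% of microglial genes called lower, and after sham surgery 10 were lower, beside 12.7%. The part of this set in the genotype differences of Nlrp3 and the other microglial members was not tested. In neutrophils Nlrp3 stood at 1040 and 1124 CPM in MCAO/R + WT and 450 and 781 in MCAO/R + Lrg1-/- (0.676-fold, adjusted p = 0.347). In border macrophages it ranged from 164 to 531 CPM with no call, and in monocytes it rose 2.51-fold with MCAO/R in Lrg1-/- mice (adjusted p = 0.0347), lost without sham + WT replicates 1, 2 or 3, sham + Lrg1-/- replicate 5 or MCAO/R + Lrg1-/- replicate 2 or 5, at 0.0554 to 0.207.

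Casp1 (chr9:5298517-5307265, plus strand), the protease, had 1 call in the types where it was highest. In border macrophages it stood at 65.3, 61.9 and 66.3 CPM in sham + WT, 39.6, 75.7 and 69.0 in sham + Lrg1-/-, 37.9 and 52.2 in MCAO/R + WT and 52.2, 54.4 and 52.5 in MCAO/R + Lrg1-/-, with no call. In microglia it stood at 37.8, 43.4 and 41.2 in sham + WT, 29.0, 33.3 and 29.5 in sham + Lrg1-/-, 29.3 and 34.2 in MCAO/R + WT and 32.8, 32.6 and 31.6 in MCAO/R + Lrg1-/-. Only the sham + WT libraries stood apart. Casp1 was 0.653-fold as high in sham + Lrg1-/- microglia as in sham + WT (adjusted p = 0.00321, beside 23.4% of genes called), kept with each library left out and lost with cells thinned to 1000 UMIs (0.166). Where it was low, Casp1 was called higher in Lrg1-/- than in WT after MCAO/R in endothelial cells, at 1.97 and 1.61 CPM against 4.43, 3.98 and 4.79 (2.34-fold, adjusted p = 0.0147, lost without MCAO/R + WT replicate 1 or 2, at 0.051 and 0.112), and also in pericytes, oligodendrocytes and choroid plexus, each call lost without at least 1 library.

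**Figure D5:**
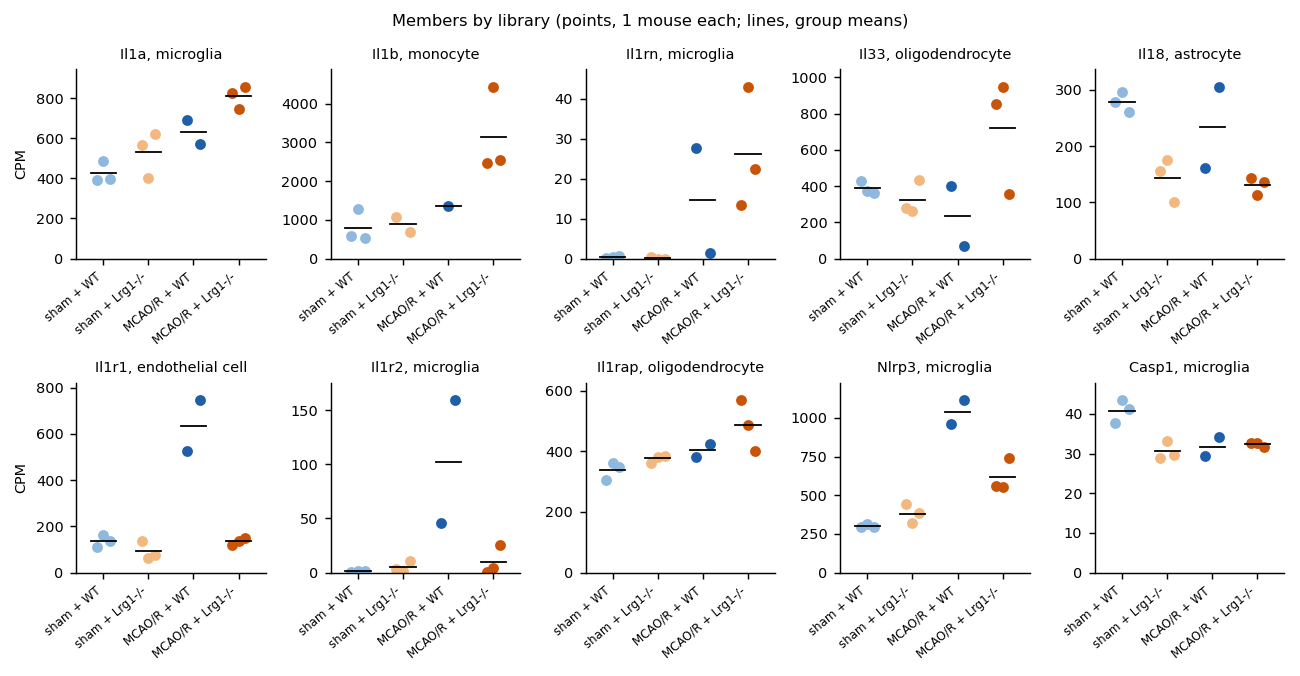
The 10 members in 1 cell type each, in CPM on a linear axis from 0, with 1 point per library of at least 20 cells and a line at each group mean. Il1r1 in endothelial cells and Il1r2 and Nlrp3 in microglia were highest in MCAO/R + WT, and Il1b in monocytes in MCAO/R + Lrg1-/-.

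The genes that act with the members were counted as 4 lists in microglia and endothelial cells, each read beside the share of all genes called in that cell type. Among the inflammasome partners, the adaptors, sensors, other caspases and pore-forming proteins of inflammasomes, 18 of 20 were tested in microglia. In WT mice 4 rose and 4 fell with MCAO/R, beside 22.1% of microglial genes called (list median log2 -0.07, all genes 0.06). In Lrg1-/- mice 4 rose and 6 fell, beside 38.2% of genes (median -0.23, all genes 0.04). After MCAO/R 1 was higher and 4 lower in Lrg1-/-, beside 21.6% (median -0.28, all genes 0.08). After sham surgery 4 were lower and 0 higher in Lrg1-/-, beside 23.4%. The WT count of 8 fell to 4 without MCAO/R + WT replicate 2, and the sham count to 2 without any 1 of the sham + WT replicates or of sham + Lrg1-/- replicates 1 and 2.

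The 1 that was higher was Pycard, the adaptor that joins Nlrp3 to caspase-1. In microglia it stood at 163, 156 and 152 CPM in sham + WT, 149, 143 and 165 in sham + Lrg1-/-, 174 and 105 in MCAO/R + WT and 317, 300 and 284 in MCAO/R + Lrg1-/-, so these last 3 libraries were above all others. Casp4, a caspase that senses bacterial lipopolysaccharide, went the other way, at 615, 650 and 700 CPM in sham + WT, 584, 666 and 637 in sham + Lrg1-/-, 480 and 745 in MCAO/R + WT and 259, 199 and 272 in MCAO/R + Lrg1-/-. The effect of MCAO/R differed between genotypes by 1.26 ± 0.25 on the log2 scale for Pycard (adjusted p = 0.0114) and -1.15 ± 0.22 for Casp4 (adjusted p = 0.0098), both kept with each library left out.

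In endothelial cells 17 inflammasome partners were tested. MCAO/R raised 3 and lowered 0 in WT mice, beside 14.5% of endothelial genes called, led by Nek7, a kinase that binds Nlrp3, and Txnip, a thioredoxin-binding protein. In Lrg1-/- mice 2 rose and 0 fell, beside 16% of genes called. These were again Nek7 (adjusted p = 0.00631, kept with each library left out) and Txnip (adjusted p = 0.0188, and 0.0522 without MCAO/R + Lrg1-/- replicate 5). After MCAO/R Nek7 and Txnip were the 2 that were lower in Lrg1-/-, beside 9.18% of genes called lower. Between the sham groups 3 were higher and 1 lower in Lrg1-/-, beside 22.2%, and 0 in either direction with a replicate block. The lower one was Txnip (adjusted p = 0.0149). Nek7 stood at 144, 149 and 156 CPM in sham + WT, 156, 133 and 101 in sham + Lrg1-/-, 925 and 971 in MCAO/R + WT and 184, 310 and 312 in MCAO/R + Lrg1-/-. Txnip stood at 651 and 674 CPM in MCAO/R + WT and at 130 to 234 in the other 9 libraries. The genotype differences after MCAO/R were -1.85 ± 0.22 for Nek7 (adjusted p = 0.000336) and -1.73 ± 0.14 for Txnip (adjusted p = 9.08e-05), both kept with each library left out, and the interactions -1.71 ± 0.29 (adjusted p = 0.0211) and -1.21 ± 0.20 (adjusted p = 0.0156). Both interaction calls were lost without sham + WT replicate 2 or 3, sham + Lrg1-/- replicate 2 or either MCAO/R + WT replicate, and that of Nek7 also without replicate 1 of sham + WT or sham + Lrg1-/-, at adjusted p of up to 0.092 for Nek7 and 0.0749 for Txnip.

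Among the 7 receptor and decoy partners, all tested in microglia, MCAO/R raised 2 in WT mice and 1 in Lrg1-/- mice and lowered 0 in either, beside 12.1% and 22.3% of genes called higher. After MCAO/R 3 were lower and 0 higher in Lrg1-/-, beside 10.8% called lower. Il18rap, the accessory chain of the interleukin-18 receptor, rose in microglia by 5.31 ± 0.38 on the log2 scale in WT mice (adjusted p = 1.35e-06) and by 3.59 ± 0.52 in Lrg1-/- mice (adjusted p = 0.000172, and 0.0649 with cells thinned). Without MCAO/R + WT replicate 1 the 2 rises in WT mice became 1 and the 3 lower genes 1. Il18rap stood at 32.1 and 32.4 CPM in MCAO/R + WT, 9.13, 4.64 and 14.2 in MCAO/R + Lrg1-/- and at most 1.09 in sham libraries. In endothelial cells 6 were tested, of which 2 rose with MCAO/R in WT mice, beside 7% of genes called higher, and 3 were higher and 1 lower in Lrg1-/- after MCAO/R, beside 19.9% called in either direction. The lower one was Il1rl2, the interleukin-36 receptor, at 7.03 and 8.41 CPM in MCAO/R + WT and 0.887, 1.67 and 3.77 in MCAO/R + Lrg1-/- (log2 -1.96 ± 0.36, adjusted p = 0.00377, kept with each library left out but lost with cells thinned to 1000 UMIs, at 0.373). The 3 higher ones were Il18bp, Sigirr and Il1rapl1, and each call was lost without MCAO/R + WT replicate 2, at adjusted p of up to 0.119, 0.189 and 0.179 over the libraries left out.

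The 19 signalling genes, which carry the receptor's signal to NF-kB or restrain it, were all tested in microglia and in endothelial cells. With MCAO/R 4 rose and 0 fell in WT microglia, beside 22.1% of genes called, and 4 rose and 3 fell in Lrg1-/- microglia, beside 38.2%. After MCAO/R 7 were lower and 0 higher in Lrg1-/- microglia, beside 10.8% of genes called lower (list median -0.35, all genes 0.08), and 2 without MCAO/R + WT replicate 2. After sham surgery 4 were lower and 1 higher in Lrg1-/- microglia, beside 23.4% of genes called, and Nfkbia, Nfkbiz and Tnfaip3, inhibitors and modulators of NF-kB, were lower after both operations. After MCAO/R the Nfkbia call (adjusted p = 0.0441) was lost without any of 8 libraries and with a replicate block (0.0647). These were all sham + WT and MCAO/R + WT libraries, sham + Lrg1-/- replicate 1 and MCAO/R + Lrg1-/- replicates 1 and 5. The Nfkbiz call after MCAO/R was lost without MCAO/R + WT replicate 2. Irak3, which also restrains the signal, was among the 7 lower after MCAO/R, so that count mixes genes that carry the signal with genes that restrain it. The 4 rises in WT mice became 2 without sham + WT replicate 3 or MCAO/R + WT replicate 2, and the 7 changes in Lrg1-/- mice 4 without sham + Lrg1-/- replicate 2. Tnfaip3, an inhibitor of NF-kB signalling, stood in microglia at 812, 1035 and 1013 CPM in sham + WT, 627, 491 and 520 in sham + Lrg1-/-, 947 and 1125 in MCAO/R + WT and 383, 392 and 361 in MCAO/R + Lrg1-/-, the lowest 3 of the 11 libraries (log2 -1.54 ± 0.15 between genotypes after MCAO/R, adjusted p = 3.69e-05). In endothelial cells MCAO/R raised 3 in either genotype, beside 7% of genes called higher in WT and 8.82% in Lrg1-/- mice. After MCAO/R 6 were lower and 0 higher in Lrg1-/-, beside 9.18% called lower (median -0.29, all genes 0.05), which became 3 and 2 without MCAO/R + WT replicate 1 and 2. The 3 rises became 1 without sham + WT replicate 3 in WT mice and 1 without sham + Lrg1-/- replicate 2 or MCAO/R + Lrg1-/- replicate 5 in Lrg1-/- mice. After sham surgery 2 were higher and 3 lower in Lrg1-/- endothelium, beside 22.2% of genes called, which became 0 and 2 with a replicate block. Irak3, which damps the signal below Il1r1, stood in endothelial cells at 16.5, 16.3 and 16.7 CPM in sham + WT, 14.3, 13.7 and 12.3 in sham + Lrg1-/-, 51.7 and 47.9 in MCAO/R + WT and 19.0, 23.3 and 23.5 in MCAO/R + Lrg1-/-. It rose by 1.64 ± 0.13 in WT mice (adjusted p = 7.95e-06) and 0.66 ± 0.13 in Lrg1-/- mice (adjusted p = 0.00586, and 0.0832 with cells thinned). The difference between them was -0.98 ± 0.18 (adjusted p = 0.035), lost without any 1 of the 6 sham libraries or of the MCAO/R + WT libraries, at up to 0.125.

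The 18 genes of the vessel wall response to interleukin-1, adhesion molecules, chemokines and prostaglandin enzymes among them, were all tested in both cell types. In endothelial cells 6 rose and 0 fell with MCAO/R in WT mice, beside 7% of genes called higher (list median 1.19, all genes 0.00), and 4 rose and 1 fell in Lrg1-/- mice, beside 16% called. The WT count became 2 without MCAO/R + WT replicate 1, and the 5 changes in Lrg1-/- mice became 1 without sham + Lrg1-/- replicate 1, 2 without sham + Lrg1-/- replicate 2 and 1 without MCAO/R + Lrg1-/- replicate 2. Lcn2, an iron-binding acute-phase protein, stood in endothelial cells at 11.5, 22.7 and 9.25 CPM in sham + WT, 51.7, 15 and 315 in sham + Lrg1-/-, 3599 and 2755 in MCAO/R + WT and 629, 1973 and 1067 in MCAO/R + Lrg1-/-. After MCAO/R 1 gene was lower and 0 were higher in Lrg1-/- endothelium, beside 9.18% of genes called lower: Icam1, the leukocyte adhesion molecule, at 604 and 653 CPM in MCAO/R + WT and 230, 373 and 388 in MCAO/R + Lrg1-/- (log2 -0.96 ± 0.26, adjusted p = 0.0226, lost without MCAO/R + WT replicate 1 or 2 or MCAO/R + Lrg1-/- replicate 1, at up to 0.0974). Over the libraries left out, 0 to 3 genes were higher and 0 to 4 lower in this comparison. After sham surgery 6 were higher in Lrg1-/- endothelium, beside 10.6% of genes called higher, and 3, 2 and 1 without sham + WT replicate 1, sham + WT replicate 3 and sham + Lrg1-/- replicate 5. In microglia the same list had 10 higher and 0 lower with MCAO/R in either genotype, beside 12.1% of genes called higher in WT and 22.3% in Lrg1-/- mice. After MCAO/R 0 were higher and 4 lower in Lrg1-/-, beside 10.8% called lower, and after sham surgery 1 was higher and 4 lower, beside 23.4% called. Nfkbia, Nfkbiz and the cytokine Il6 were among the lower genes after both, and Nfkbia and Nfkbiz are also counted in the signalling list, where the libraries their calls depend on are named. The 10 in WT microglia became 5 without MCAO/R + WT replicate 1. The genotype comparison gave 8 calls in both directions together without MCAO/R + WT replicate 1 and 2 without replicate 2, and over the libraries left out 0 to 5 genes were higher and 2 to 5 lower. In endothelial cells the 15 dissociation genes summed to 33130 and 31930 CPM in MCAO/R + WT and 22990, 20610 and 23540 in MCAO/R + Lrg1-/-, with 7 lower and 0 higher by the test, and their part in the endothelial differences was not tested.

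The genes whose levels followed a member most closely were ranked over 157 sums of 19 cell types by Pearson's r of log2(CPM + 1), a description in which sums of 1 library share depth and free RNA. Il1b lay closest to Alox5ap (0.88), Ccl6 (0.878) and Clec4e (0.876), genes of myeloid cells. Il1r1 lay closest to Itga1 (0.797), an integrin chain, Col4a1 (0.777), a basement membrane collagen, and Dysf (0.759). Il33 lay closest to the oligodendrocyte genes Cldn11 (0.79) and Mag (0.742) and to Tmeff2 (0.737).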

How the data were processed

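Single-cell RNA was measured in 11 libraries. The deposited count matrices hold UMI counts per gene and cell that the authors made with Cell Ranger (7.0.1 per the file headers), with mm10 named in the submitters' processing notes. Cells with more than 500 genes, more than 1000 UMIs and under 25% mitochondrial UMIs were kept, and the 6% of each library with the highest doublet score were removed (7946). Cells were clustered with Leiden (leidenalg 0.10.2, 2000 variable genes, 15 components, 3 neighbors per library) and clusters were named from at least 3 markers. Of the members, Il1b, Il1rn, Il1r1, Il1r2, Il1rap, Il33 and Nlrp3 were among the variable genes. Raw counts were summed per library and cell type and tested with edgeR 4.0.16 (quasi-likelihood test, TMM, filterByExpr, 4 group means, Benjamini-Hochberg over all genes of the cell type), in 1 fit per type over libraries with at least 20 cells. All 10 members passed the count filter in microglia, border macrophages, monocytes, endothelial cells, oligodendrocytes, smooth muscle and choroid plexus; 7 to 9 passed in neutrophils, T cells, red blood cells, pericytes, fibroblasts and astrocytes. On simulated data, 2-fold changes of the MCAO/R comparison in WT mice were recovered in 38.1% of cases in microglia (18054 genes) and 59.6% in endothelial cells (16876 genes), and 4-fold changes in 82% and 83.7%.

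The members and gene lists were chosen with earlier results of these data known. Named were all 10 members, up to 4 genes per list with the lowest adjusted p in microglia or endothelial cells, and the 3 genes most like Il1b, Il1r1 and Il33; genes leading a cluster and cell markers were named as descriptions, and Icam1, Il6 and Sigirr, which belong to counts of 5 or fewer, were named after their values were seen. Counting intervals are exact 95% intervals and cover counting error only. In droplet data free RNA gives UMIs in cells that do not express a gene. Levels are compared within a gene, and the ratio of Il1b to S100a9 UMIs is compared between cell types. The alternatives were DESeq2 1.42.0, RLE normalization, no count filter, doublets kept, a 10% mitochondrial limit, cells thinned to 1000 UMIs, unnamed clusters assigned, at least 50 cells, a replicate block and each library left out; microglia without the Lpl and Msr1 cluster were added after seeing the data.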

Additional observations from a re-analysis of the deposited data

Results flagged for a closer look

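The effect of MCAO/R differed between genotypes by the interaction test for 4 members in microglia. For Il1r1 the log2 difference of the effects was -2.31, for Il1r2 -4.62 and for Nlrp3 -0.97, each effect lower in Lrg1-/- than in WT mice. Nlrp3 rose in both genotypes, while Il1r1 and Il1r2 rose in WT mice and gave no call in Lrg1-/- mice (adjusted p = 0.708 and 0.219). For Il33 it was 2.31, with a called rise in Lrg1-/- mice and none in WT mice. With each library left out, Il1r1 kept its call, while Il33 lost it without sham + Lrg1-/- replicate 2 (adjusted p = 0.0503), Nlrp3 without any of 4 libraries and Il1r2 without any of 8. The MCAO/R + WT group behind all 4 values held 2 mice.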

How the results depend on the processing

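Over cell types, the main fits called 17 member changes for MCAO/R in WT, 25 for MCAO/R in Lrg1-/-, 37 between genotypes after MCAO/R, 9 between genotypes after sham surgery and 4 interactions. In the same order, testing without the count filter gave 37, 63, 61, 34 and 24, and thinning cells to 1000 UMIs gave 8, 14, 20, 4 and 1. DESeq2 gave 17 calls between the sham groups. Calls over all genes moved with the setting too. Between genotypes after MCAO/R, thinned microglia had 969 of 12693 genes higher and 1124 lower, against 1941 and 1956 of 18054 in the main fit. Between the sham groups DESeq2 called 2174 of 18048 microglial genes higher and 2316 lower, against 1930 and 2300 of 18054. Shares over all cell types are not given for the alternatives, so these counts are not results about the members alone. With 1 library left out the counts ranged from 9 to 25, 12 to 29, 12 to 40, 4 to 17 and 2 to 7. The count for MCAO/R in WT fell most without sham + WT replicate 3 (9), for MCAO/R in Lrg1-/- without sham + Lrg1-/- replicate 1 (12), between genotypes after MCAO/R without MCAO/R + WT replicate 2 (12) and after sham without sham + WT replicate 3 (4), and it rose to 17 after sham without MCAO/R + Lrg1-/- replicate 1 or 5. Of 92 called changes, 0 reversed under any alternative, 29 were kept with every library left out and 25 also under every alternative that gave a value (thinning gave one for 66 of the 92, the limit of 50 cells for 80, the 10% mitochondrial limit for 87 and DESeq2 for 88); MCAO/R + WT replicate 2 mattered most, since 36 calls were lost without it.

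Replicate numbers are shared by the groups, but libraries with the same number did not deviate together (Pearson r of -0.386 to 0.187 in microglia, endothelial cells and oligodendrocytes). A replicate block gave 13, 23, 29, 4 and 4 calls, so that between the sham groups the count moved from 9 to 4, and the 6 vessel wall genes higher in sham + Lrg1-/- endothelium became 0.

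A 2-fold change was recovered in 38.1% of simulated cases in microglia and 59.6% in endothelial cells, so a missing call does not show an equal level. The simulation kept the real library sizes and was not run at other depths, so the part of depth in this was not tested. Neutrophils and monocytes reached 20 cells in 5 and 9 of 11 libraries, and the MCAO/R effect in WT mice was not tested there, since 1 library or none of a group was left.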

Other observations

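Dendritic cells reached 20 cells in 2 libraries only, MCAO/R + Lrg1-/- replicates 2 and 5, with 114 and 23 cells, so they entered no comparison. There Il1b stood at 2055 and 1673 CPM, the decoy Il1r2 at 626 and 645, and the antagonist Il1rn at 43.7 and 12.3. The ratio of Il1b to S100a9 UMIs in these cells was 13.3 and 14.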
